A study of Mus musculus with 4 samples.

Results

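Cadherins and other adhesion molecules of epithelial cells were followed through the priming of mouse embryonic stem (ES) cells. They comprised 10 of the 35923 gene names on the array (Cdh1, Cdh2, Cdh3, Cdh11, Cdh22, Epcam, Jam2, F11r, Pecam1 and Icam1), read by 14 of 55122 usable probes. Members were taken by the gene name that the scanner files give each probe, and they were chosen by function with earlier results of these data known: Cdh22 was selected on its rise and Jam2 on its fall from ES cells to aggregates. All RNA came from the E14Tg2A line (strain 129/Ola). The ES array held untreated cells at day 0, grown in serum with leukemia inhibitory factor. The ELA array held untreated epiblast-like aggregates, the primed state reached by floating clusters after 2 days in a defined serum-free medium without that factor. The AZA array held aggregates of day 2 formed with 5-azacytidine at 50 nM, an inhibitor of DNA methyltransferases. The CHQ array held aggregates of day 2 formed with 5-carboxy-8-hydroxyquinoline at 100 μM, an inhibitor of lysine demethylases. Each array was hybridised once to a pool of RNA from 3 experiments of this single cell line, so no spread between cultures was measured and no p-value was computed.

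Cadherins are calcium-dependent proteins that bind the same cadherin on the neighbouring cell and are tied to actin by catenins at the adherens junction. Junctional adhesion molecules, PECAM-1 and ICAM-1 belong to the immunoglobulin superfamily, and EpCAM is an adhesion protein of its own kind that marks epithelia and pluripotent cells. ES cells and the epiblast are held together mainly by E-cadherin, and a change from E-cadherin to N-cadherin is a known mark of cells that leave an epithelium.

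The target sequences of 4 member probes are shown first, 3 of them from genes that were lowest in ELA (Jam2, Icam1, Pecam1) and 1 from a steady gene (Epcam). Each has at least 1 reading frame with no stop codon. Positions are those of the deposited files (mm9), and no part is in capitals since no motif was sought in them.
Jam2 probe 1 (chr16:84816558-84816617): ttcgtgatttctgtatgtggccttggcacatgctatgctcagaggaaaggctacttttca
Icam1 (chr9:20832290-20832349): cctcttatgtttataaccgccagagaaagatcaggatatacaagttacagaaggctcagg
Pecam1 (chr11:106540864-106540923): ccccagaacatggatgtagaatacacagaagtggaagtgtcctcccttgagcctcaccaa
Epcam (chr17:88048972-88049800, a span longer than the probe): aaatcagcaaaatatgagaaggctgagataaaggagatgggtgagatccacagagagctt

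Of the 10 members, 4 (Cdh22, Epcam, F11r and Icam1) were matched by symbol in a RefSeq promoter table of build GRCm38.p6, from which the 250 bases before the transcript start were read. The promoters of Cdh22, the member with the highest ELA level relative to ES, and of Icam1, which was lowest in ELA, are printed because AZA acts on the methylation of CpG dinucleotides, which stand in capitals. Methylation itself was not measured on these arrays.
Cdh22 promoter (chr2:165234738-165234987, minus strand): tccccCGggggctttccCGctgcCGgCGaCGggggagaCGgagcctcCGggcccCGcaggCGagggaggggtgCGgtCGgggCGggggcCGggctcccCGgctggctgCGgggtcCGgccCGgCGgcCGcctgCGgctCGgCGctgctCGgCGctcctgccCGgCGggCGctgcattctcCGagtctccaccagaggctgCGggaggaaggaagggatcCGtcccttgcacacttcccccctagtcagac
Icam1 promoter (chr9:21015690-21015939, plus strand): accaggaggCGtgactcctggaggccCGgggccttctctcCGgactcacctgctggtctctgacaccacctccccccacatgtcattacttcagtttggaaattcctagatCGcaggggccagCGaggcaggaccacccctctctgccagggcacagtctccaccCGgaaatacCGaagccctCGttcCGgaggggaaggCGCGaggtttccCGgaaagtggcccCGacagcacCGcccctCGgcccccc

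The Cdh22 promoter held 30 CpG and 77.6% G or C. As many CpG were found in 5.94% of the 32851 promoters of this length, whose median was 6 CpG and 52.4% G or C. The Icam1 promoter held 15 CpG (as many in 27.3% of promoters), that of F11r held 17 (23.5%) and that of Epcam held 8 (43.0%). On either strand, the letters CAGGTG, an E-box of the type bound by Snail and ZEB repressors, stood 187 and 19 bases before the start of Epcam, 122 bases before that of F11r and 204 bases before that of Icam1, and 17.2% of all promoters held them. The letters GGAAATTCC, of the NF-kB type, stood 153 bases before the Icam1 start (0.286% of promoters), and TTCNNNGAA, of the STAT type, stood 42 bases before it (7.02% of promoters). None of these 3 motifs was in the Cdh22 window. These are matches of letters, not measured binding sites.

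Values are normalised log2 intensities, and a difference is between log2 values of the same probe. Levels of different probes were not compared. A probe was called higher or lower when its arrays differed by at least 1 log2 unit, had a mean of at least 7.5 and were flagged as well above background in at least 1 case. In bulk RNA, fewer cells that express a gene and less of its RNA per cell cannot be told apart. The ES and ELA arrays shared slide 1 and its scan, and the AZA and CHQ arrays shared slide 2 and its scan, so the differences ELA minus ES and CHQ minus AZA lie within a slide, while slide and treatment cannot be told apart in AZA or CHQ against ELA. Between 55.1% (ELA) and 69.2% (CHQ) of gene spots were well above background, with a median local background of 59 (ES), 77 (ELA), 14 (AZA) and 13 (CHQ). The pooled spread of repeated spots put the SD of a difference between arrays at 0.21 for a probe of 1 spot (432 probes with repeated spots), which covers spotting and reading only. With scaling to spike-in RNA the median of all callable probes was -0.59 for ELA minus ES (main -0.01). It was -0.28 in AZA against ELA (main -0.10), -0.41 in CHQ against ELA (main -0.11) and -0.17 between CHQ and AZA (main -0.02). That scaling put the higher share of called probes at 6.87% against 42.7% for ELA minus ES, at 31.4% against 52.7% for CHQ minus ELA and at 40.4% against 52.2% for CHQ minus AZA. Cyclic loess put it at 63.2% against 53.2% for AZA minus ELA and at 64.9% for CHQ minus ELA, where the 75th percentile scaling gave 40.7%.

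The labels were checked on marker lists. Ground state pluripotency markers (5 genes measured, 6 probes) were all well above background on every array. Of their probes, 5 of 6 were lower in ELA than in ES (5.52% over all probes) and 5 of 6 higher in AZA than in ELA (14%). In CHQ against ELA, 4 were higher (14.2%) and 1 lower (12.8%). The 2 Nanog probes disagreed, since one differed by 0.24 from ES to ELA and was lower than ELA in AZA (-1.55) and CHQ (-1.02). The other was higher in AZA (2.88) and unchanged in CHQ (0.01). Of 6 probes of 4 primed epiblast markers, 4 were higher in ELA than in ES (4.11% over all probes). Against ELA, 5 were lower in AZA (12.3%) and 3 in CHQ (12.8%).

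From ES to ELA, 12 of the 14 member probes were callable. Cdh22 was higher, against 4.11% of the 25201 callable probes of the array, and 4 member probes were lower (the 3 of Jam2 and that of Icam1), against 5.52%. Since Cdh22 and Jam2 were chosen by this contrast, nothing is read from the counts. Against ELA, AZA gave 6 higher member probes of 12 (3 of Jam2, and Cdh3, Pecam1 and Icam1) where 14% of 25348 probes were higher, and 3 lower ones (2 of Cdh2, and Cdh22) where 12.3% were lower. CHQ against ELA gave 5 higher of 12 (3 of Jam2, Cdh3 and Icam1) where 14.2% of 25334 were higher, and 1 lower (Cdh22) where 12.8% were lower. CHQ against AZA gave 2 higher of 13 (both of Cdh2) where 5.08% of 25329 were higher, and 3 lower (all of Jam2) where 4.65% were lower. Probes of the same gene are not independent of each other. The median difference of the 14 member probes was 0.05 from ES to ELA (-0.01 over all callable probes), 0.30 in AZA against ELA (-0.10), 0.49 in CHQ against ELA (-0.11) and -0.23 in CHQ against AZA (-0.02). The comparisons of AZA and CHQ with ELA share its array with each other and with ELA minus ES, so a value of that array alone would appear in all of them.

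**Figure D1:**
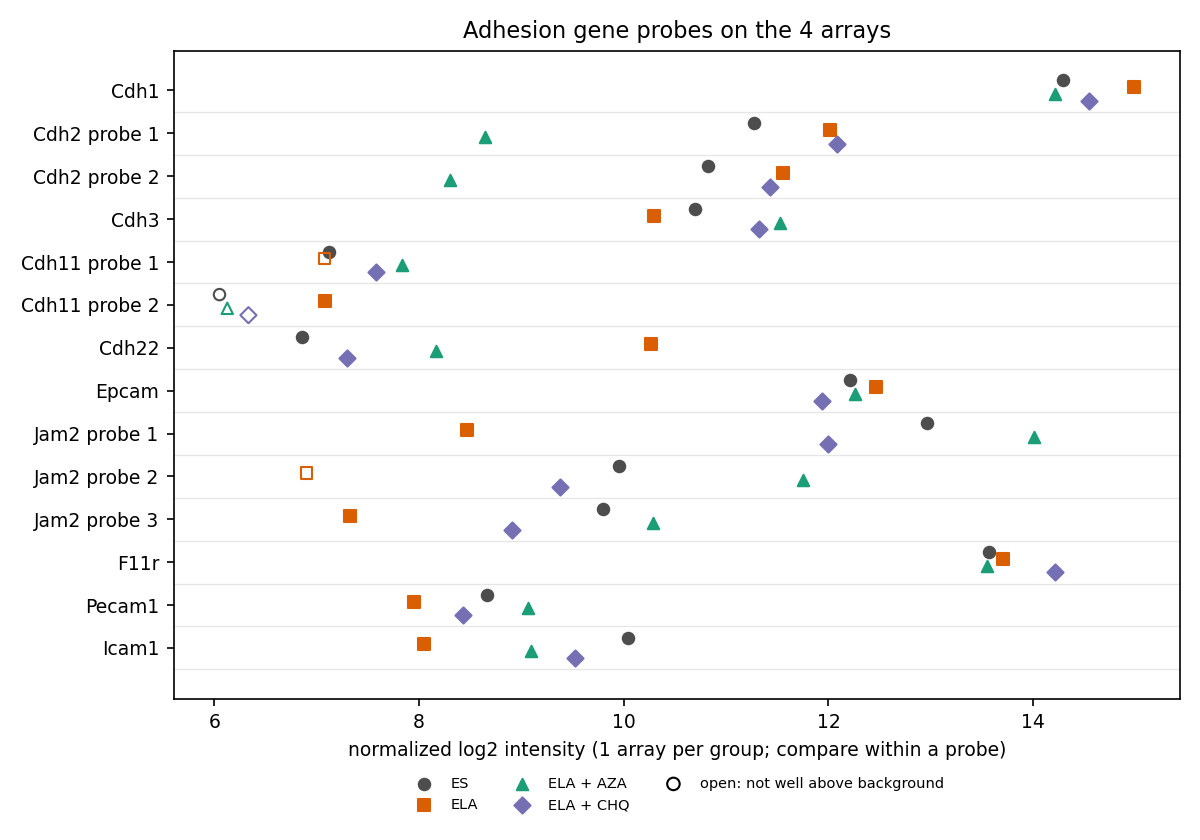
Normalised log2 intensity (horizontal axis) of the 14 probes on the 4 arrays, 1 symbol per array, with open symbols where a probe was not well above background. The ELA squares lie apart for Cdh22 (10.27) and for Jam2 probe 1 (8.47), and the AZA triangles lie apart for Cdh2 probe 1 (8.65) and probe 2 (8.31).

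Jam2, which encodes a junctional adhesion molecule that binds itself and JAM-C across cell contacts, was lowest in ELA with all 3 probes. Its probe 1 read 12.96 in ES, 8.47 in ELA, 14.01 in AZA and 12.00 in CHQ. Before normalisation the mean spot intensities of this probe were 9267 in ES, 332 in ELA, 15584 in AZA and 4088 in CHQ. The ELA level was thus 22.5-fold below the ES level (difference -4.49, rank 5 from the lowest of 25201), which is the value the gene was chosen by.

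Probe 2 of Jam2 (chr16:84811166-84811225) read 9.95 in ES, 6.90 in ELA, 11.75 in AZA and 9.38 in CHQ. In ELA it was not well above background, so ES was at least 8.27-fold, AZA at least 28.8-fold and CHQ at least 5.57-fold higher than ELA. Probe 3 (chr16:84824952-84825011) read 9.80 in ES, 7.32 in ELA, 10.29 in AZA and 8.91 in CHQ. The order AZA, ES, CHQ, ELA was the same for the 3 probes, and their sizes differed, with ELA minus ES between -4.49 and -2.47.

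Against ELA, Jam2 probe 1 was 46.5-fold higher in AZA (difference 5.54) and 11.5-fold higher in CHQ (3.53). For probe 3 these differences were 2.96 and 1.58. The comparison of CHQ with AZA uses neither array of the contrast by which Jam2 was selected and lies on 1 slide. There Jam2 was lower in CHQ with all 3 probes, by differences of -2.01, -2.37 and -1.38. Against ES, AZA was higher by 1.05, 1.80 and 0.49 for probes 1 to 3, and CHQ was lower by differences of -0.96, -0.57 and -0.89. The call of CHQ against ELA was lost for probe 2 with the 75th percentile scaling and for probes 2 and 3 with the authors' deposited table, although the differences there were larger (3.83, 3.06 and 2.12), as their mean level was then under the minimum.

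F11r, the gene of the related JAM-A of tight junctions, stayed bright on every array. It read 13.57 in ES, 13.71 in ELA, 13.55 in AZA and 14.22 in CHQ (chr1:173393848-173393907). None of its differences reached 1 log2 unit in any processing tried, and the furthest in the main processing was CHQ minus AZA at 0.67. ES, ELA and AZA lay within 0.16 of each other, which is less than the 0.21 spot SD of a difference, so no order is read among them.

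Cdh22, which encodes a classical cadherin best known from the pituitary and brain, was highest in ELA. It read 6.86 in ES, 10.27 in ELA, 8.16 in AZA and 7.29 in CHQ (chr2:164937057-164937116). Mean spot intensities were 124 in ES, 1137 in ELA, 243 in AZA and 115 in CHQ, all of them well above background. ELA was 10.65-fold above ES (3.41, rank 8 from the highest of 25201), the value the gene was selected on. The offset of 50 added before log2 narrows such differences for dim probes, and ELA minus ES ran from 2.82 with spike-in scaling to 4.73 with the 75th percentile scaling.

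Against ELA, Cdh22 was 4.31-fold lower in AZA and 7.88-fold lower in CHQ. On slide 2, CHQ lay below AZA by a difference of -0.87, and the 6 other processings gave -1.37 to -0.92, none of them with a call. Against ES, AZA was higher by 1.31 and CHQ by 0.43.

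Cdh2, the gene of N-cadherin, was low in AZA alone. Its probe 1 (chr18:16747559-16747618) read 11.27 in ES, 12.01 in ELA, 8.65 in AZA and 12.08 in CHQ. Probe 2 (chr18:16747386-16747445) read 10.83 in ES, 11.55 in ELA, 8.31 in AZA and 11.43 in CHQ. The mean spot intensities of probe 1 were 2691, 3713, 363 and 4333 in the same order. AZA was apart from the other 3 arrays with both probes, and the probes, which target neighbouring stretches of the same gene, differed from each other in no comparison by more than 0.31.

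Against ELA, Cdh2 was 10.3-fold lower in AZA by probe 1 and 9.51-fold lower by probe 2. The same gap was found within slide 2, where CHQ was 10.8-fold and 8.71-fold above AZA (differences 3.43 and 3.12, ranks 13 and 23 from the highest of 25329), and these calls held in all 7 alternatives tried on them. CHQ and ELA differed by 0.07 and -0.13, less than the spot SD. From ES to ELA both probes differed by less than the calling threshold (0.74 and 0.73), and with spike-in scaling by 0.10.

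**Figure D2:**
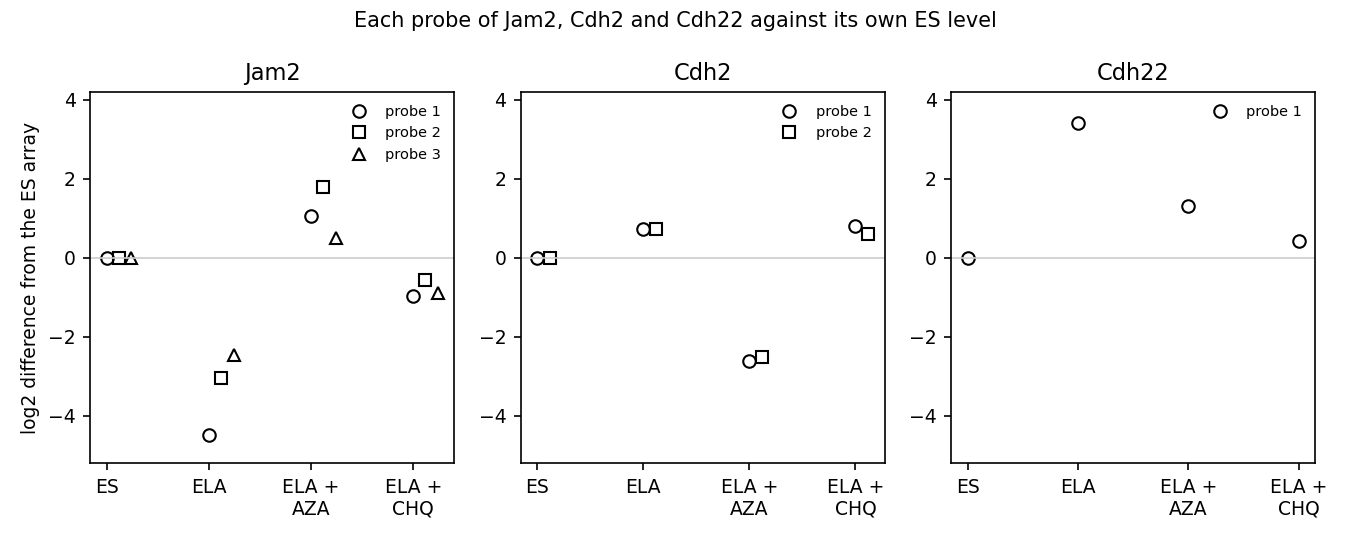
Log2 difference of each array from the ES array (vertical axis) for every probe of Jam2, Cdh2 and Cdh22, 1 symbol per probe. Jam2 lies below 0 in ELA (-4.49 to -2.47) and above 0 in AZA, Cdh2 lies below 0 in AZA (-2.62 and -2.52) and above 0 in ELA and CHQ, and Cdh22 is furthest from 0 in ELA (3.41).

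Cdh1, which encodes E-cadherin, was the adhesion gene best measured, with 10 spots per array. It read 14.29 ± 0.14 in ES, 14.99 ± 0.17 in ELA, 14.22 ± 0.18 in AZA and 14.55 ± 0.20 in CHQ (SD over the 10 spots, chr8:109193812-109193871). ELA minus ES was 0.70 ± 0.06 over spots, AZA minus ELA was -0.77 ± 0.09, CHQ minus ELA was -0.44 ± 0.10 and CHQ minus AZA was 0.33 ± 0.08. Each of these was in the same direction in all 10 spots, and none reached 1 log2 unit. ELA was highest. AZA and ES, which lie on different slides, differed by -0.08. The spot SD of either array is larger, but it does not take the pairing of spots into account. The scaling mattered here, since ELA minus ES was 0.02 with spike-in scaling and AZA minus ELA was called lower (to -1.06) with that scaling and with the 75th percentile.

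Epcam, the gene of the EpCAM protein, read 12.22 in ES, 12.46 in ELA, 12.26 in AZA and 11.94 in CHQ. The ES and AZA arrays differed by 0.04. The furthest pair was CHQ and ELA at -0.52, under the threshold, and ELA minus ES was -0.40 instead of 0.25 with spike-in scaling. Thus Cdh1, Epcam and F11r were called in no comparison of the main processing, and Cdh2 only where AZA entered.

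Cdh3, which encodes P-cadherin, a classical cadherin of placenta and epithelia, was brighter in the treated aggregates. It read 10.69 in ES, 10.30 in ELA, 11.52 in AZA and 11.32 in CHQ (chr8:109079933-109079992). AZA was 2.33-fold and CHQ 2.03-fold above ELA. The CHQ call, close to the threshold at 1.02, was lost with the 75th percentile (0.93) and with spike-in scaling (0.83). On slide 2 the arrays differed by -0.20, less than the spot SD of a difference. Cdh3 lies beside Cdh1 on chromosome 8, and ELA was the array with the highest Cdh1 level and the lowest Cdh3 level.

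Cdh11, the gene of a cadherin of mesenchymal cells, was dim and its 2 probes did not rank the arrays alike. Probe 1 (chr8:105156895-105156927) read 7.12 in ES, 7.08 in ELA, 7.83 in AZA and 7.58 in CHQ, and in ELA it was not well above background. Probe 2 (chr8:105157473-105157532) was well above background in ELA alone, at 7.08, against 6.05 in ES, 6.13 in AZA and 6.33 in CHQ. By bounds in the main processing, ELA was at least 1.48-fold above ES, 1.60-fold above AZA and 1.58-fold above CHQ for probe 2. For probe 1, AZA was at least 1.69-fold and CHQ at least 1.42-fold above ELA in that processing. With spike-in scaling these probe 1 differences were 0.38 and -0.0004, so its bounds do not hold over processings. Apart from CHQ minus AZA for probe 1 (-0.25), these probes were under the minimum mean level, and no direction is given for the gene.

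Pecam1, an immunoglobulin-type adhesion molecule of endothelium that ES cells also carry, was measured by 2 spots. It read 8.67 in ES, 7.95 in ELA, 9.07 in AZA and 8.43 in CHQ. AZA was 2.17-fold above ELA, with spot differences of 1.10 and 1.13. That call was lost with spike-in scaling (0.94). ELA minus ES was -0.72 and was called lower with spike-in scaling and with the 75th percentile, which gave -1.17 at the most.

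Icam1, which encodes the ligand of leukocyte integrins, was lowest in ELA. It read 10.04 in ES, 8.05 in ELA, 9.09 in AZA and 9.52 in CHQ. ELA was 3.98-fold below ES, a call made within slide 1 and kept in the 6 other processings but not at a size of 2 log2 units (difference -1.99). CHQ was 2.78-fold above ELA (1.48) and AZA 2.06-fold (1.04), and the AZA call was lost with spike-in scaling (0.88). The order ES, CHQ, AZA, ELA was found in all 6 other processings, though CHQ minus AZA, at 0.43, was under the threshold. Jam2, Icam1 and Pecam1 all had ELA as their lowest array, as did Cdh3.

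Markers of cells that carry PECAM-1 and ICAM-1 were read beside them. Of 7 endothelial markers, 4 genes were well above background on each array, while the defining genes Cdh5 (VE-cadherin), Tie1 and Emcn were on none. The summed normalised intensity of the whole list was 11525 in ES, 11514 in ELA, 10381 in AZA and 12991 in CHQ. Such a sum gives most weight to the brightest probes of a list and need not follow its other genes. The 2 Kdr probes did not rank the arrays alike, since one read 12.97 in ES, 13.19 in ELA, 12.23 in AZA and 12.14 in CHQ and the other 7.55 in ES, 6.75 in ELA (not well above background), 8.05 in AZA and 7.57 in CHQ. Tek, a receptor of endothelium, read 9.21 in ES, 7.27 in ELA, 9.72 in AZA and 11.02 in CHQ, so that it was lower in ELA than in ES (-1.94) and higher than ELA in AZA (2.45) and CHQ (3.75). Of the callable probes of this list, 2 of 4 were lower in ELA than in ES (Tek and Esam, 5.52% over all probes) and 2 of 3 were higher in AZA than in ELA (Tek and Cd34, 14%). In CHQ against ELA the same 2 were higher (14.2%) and the first Kdr probe was lower (12.8%). Tek thus moved in the direction of Icam1 and Pecam1 in these comparisons, and its part in their values was not tested. Among leukocyte genes, Ptprc (CD45) read 6.87 in ES, 6.41 in ELA, 6.60 in AZA and 6.93 in CHQ, and in ELA it was not well above background. Cd68, a macrophage gene, was well above background on all arrays and read 8.02 in ES, 7.57 in ELA, 9.07 in AZA and 8.95 in CHQ. Cd3e, a T cell gene, read 10.66 in ES, 10.705 in ELA, 11.02 in AZA and 11.11 in CHQ. Cd68 was lowest in ELA, as Icam1 and Pecam1 were, while Ptprc in ELA and AZA, and Cd3e in ES and ELA, differed by less than the 0.21 spot SD of a difference, and their part in the Icam1 and Pecam1 values was not tested.

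Primitive endoderm, trophoblast, neural progenitor and fibroblast markers were also read as summed normalised intensities. The primitive endoderm list (7 genes) read 1050 in ES, 1504 in ELA, 1371 in AZA and 2941 in CHQ, with Gata6 and Pdgfra not well above background in ES and ELA. The trophoblast list (6 genes measured) read 131568 in ES, 97606 in ELA, 32622 in AZA and 26943 in CHQ, while Cdx2 was above background in ES alone. The 3 probes of Krt8 and Krt18, keratins of epithelia in general, were lower in AZA and in CHQ than in ELA, whereas Krt7 was higher in CHQ (1.31). The neural progenitor list (5 genes) read 8840 in ES, 17425 in ELA, 5905 in AZA and 7805 in CHQ. The fibroblast list (6 genes) read 5452 in ES, 13879 in ELA, 8604 in AZA and 3567 in CHQ, with Lum above background on no array. Within the fibroblast list Thy1 was highest in ELA (12.08 in ES, 13.58 in ELA, 12.78 in AZA and 11.27 in CHQ), while Col1a1 was lowest in ELA (7.72) and Pdgfrb highest in AZA (9.30). The primed epiblast list (4 genes) read 332951 in ES, 757279 in ELA, 259540 in AZA and 383344 in CHQ. Cdh22 and the summed levels of the primed epiblast, neural and fibroblast lists were highest in ELA, though not every gene of these lists was. The part of these cell types in the Cdh22 level was not tested.

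**Figure D3:**
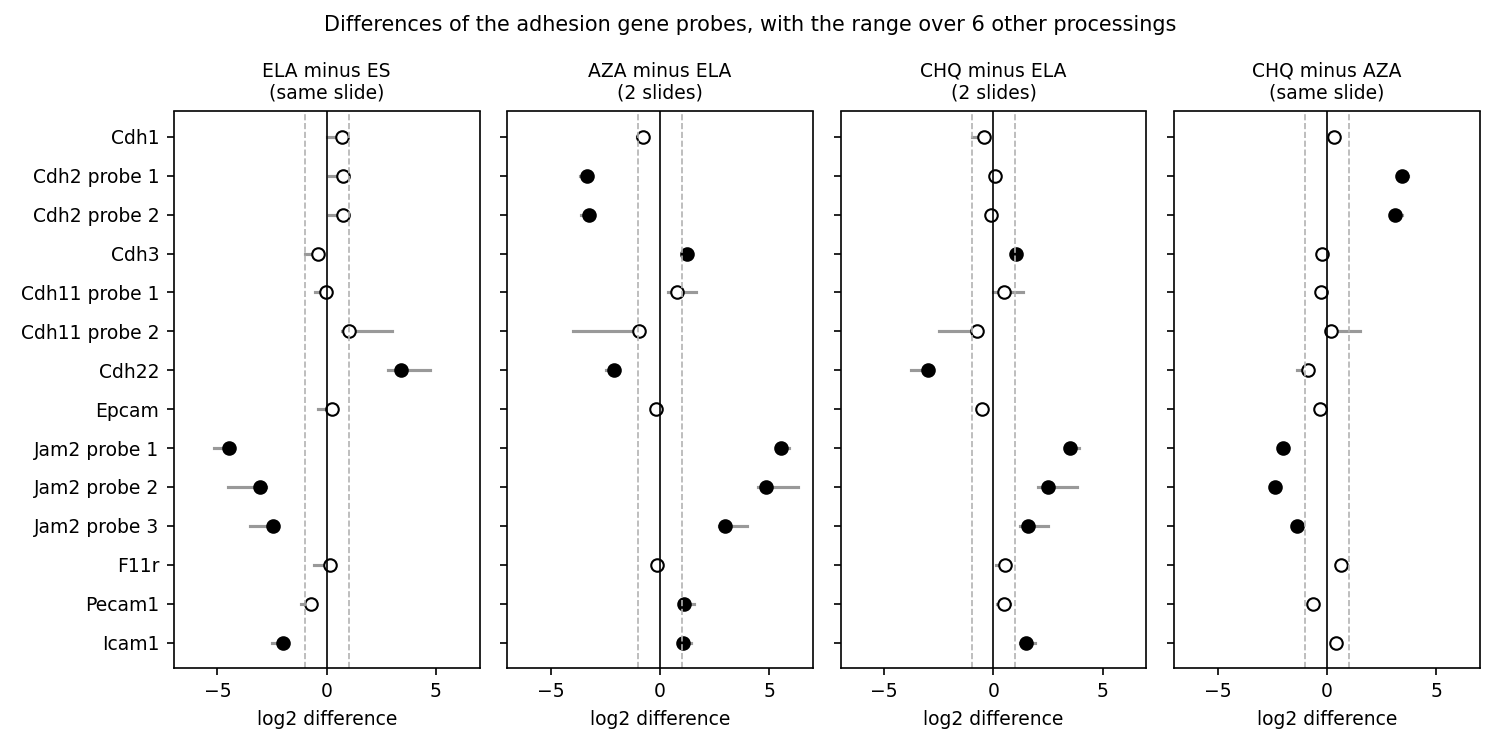
Log2 difference (horizontal axes) of each member probe in the 4 comparisons, with filled points where a probe was called, grey lines for the range over 6 other processings and dashed lines at 1 log2 unit in either direction. The Jam2 points change side between ELA minus ES (-4.49 for probe 1) and AZA minus ELA (5.54), comparisons that share the ELA array, and both Cdh2 probes are called only where AZA enters (3.43 for probe 1 in CHQ minus AZA).

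Partner genes were read by lists, each beside the share of all callable probes called the same way and the all-probe medians given above. Among 12 adherens junction partners (catenins, nectins and their links to actin), 3 of 16 callable probes were higher in ELA than in ES and none lower, where 4.11% of all probes were higher (median 0.32, against -0.01 over all probes). The higher ones were Ctnna2 (alpha-N-catenin, 2.11), Nectin1 (1.30) and 1 of 3 Nectin3 probes (1.16, against 0.24 and 0.58 for the others), but with spike-in scaling 1 was higher and 2 lower (median -0.35). Against ELA, 5 of 16 were lower in AZA (12.3% over all probes, list median -0.34) and 3 of 16 in CHQ (12.8%, median 0.15, but -0.17 with spike-in scaling and -0.01 with the 75th percentile), and none was higher. CHQ against AZA gave 2 higher and 1 lower of 15, where 5.08% and 4.65% of all probes were called (median 0.34). One Nectin2 probe was lower in AZA (-1.34) and CHQ (-2.43) and lower in CHQ than in AZA (-1.08), and the other was lower in CHQ (-1.70) and under the threshold in AZA (-0.87). Afdn, the gene of the nectin anchor afadin, was lower in both (-1.40 and -1.79). Nectin1 was lower in AZA than in ELA (-1.01) and higher in CHQ than in AZA (1.43), and Vcl (vinculin) was lower in AZA by 1 of 2 probes (-1.15 and -0.97). Ctnna2 was lower in AZA (-1.81), where Cdh2 was low too, and on slide 2 it was higher in CHQ than in AZA (2.16). The catenins bound to E-cadherin, Ctnnb1, Ctnna1 and Ctnnd1, were called in no comparison.

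Among 14 tight junction genes, 3 of 16 callable probes were higher in ELA than in ES (4.11% over all probes) and none lower (median 0.60). With spike-in scaling 2 were higher and the median was 0.04. The 3 of the main processing were Cldn5 (2.16), Cldn3 (1.94) and Jam3 (1.16), the last of which encodes JAM-C, a partner of the Jam2 product. Thus Jam3 was higher in ELA where Jam2 was lower, and it was lower in CHQ than in ELA (-1.02). Against ELA, 8 of 16 were lower in AZA (median -0.88) and 8 of 16 in CHQ (median -0.94), and none was higher, where 12.3% and 12.8% of all probes were lower. With cyclic loess 6 were lower in each. Cldn7, a claudin that binds EpCAM, was lower in AZA (-2.25) and CHQ (-2.43), as were Marveld2 (tricellulin, -1.33 and -1.43) and Cldn3 (-1.20 and -2.24). Marveld3 was lower by both of its probes, which gave -1.41 and -1.10 in AZA and -1.37 and -1.87 in CHQ. Cgn, the gene of the tight junction protein cingulin, was lower in AZA (-1.52) and CHQ (-1.41). In CHQ against AZA, 2 of 16 callable probes were lower, where 4.65% of all probes were, and they were those of Cldn5 (-1.37) and Cldn3 (-1.04).

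Of 9 desmosome genes, 4 were called in at least 1 comparison. Perp, a membrane protein of desmosomes, was lower in ELA than in ES (-2.20) and higher in AZA (2.00) and CHQ (3.53) than in ELA, and higher in CHQ than in AZA (1.53). Pkp2 (plakophilin-2) was higher in CHQ than in ELA (1.72), and Dsc2 (desmocollin-2, itself a cadherin) was lower in AZA (-1.64), as was Pkp4 (-1.15). In all, 1 of 8 callable probes was lower in ELA than in ES (5.52% over all probes). Against ELA, 1 of 8 was higher and 2 were lower in AZA (14% and 12.3%), and 2 of 7 were higher in CHQ (14.2%). CHQ against AZA gave 1 of 7 higher (5.08%). The list medians in these comparisons were -0.28, -0.46, -0.37 and 0.81, beside -0.01, -0.10, -0.11 and -0.02 over all callable probes.

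Among 18 other cadherin genes, 10 of 21 probes were callable from ES to ELA, of which 4 were higher, where 4.11% of all probes were, and none lower (2 and 1 with spike-in scaling), at a median of 0.35 (-0.01 over all probes, and -0.18 for the list with spike-in scaling). Cdh4 (R-cadherin) was higher in ELA than in ES by 2 probes (2.01 and 1.88), and so were Cdh10 (1.28) and Cdh13 (T-cadherin, 1.25). The same 3 genes were lower in AZA than in ELA, with differences of -3.09 and -3.63 for the same Cdh4 probes, -1.81 for Cdh13 and -1.80 for Cdh10. In all, 4 of 9 callable probes were lower there, where 12.3% of all probes were (median -0.83, against -0.10 over all probes), and 1 of 3 callable with the 75th percentile scaling (median -0.13) and with the deposited table (-0.12). CHQ against ELA gave no call among 9 by the rule, at a median of -0.53 (-0.11 over all probes). On slide 2, 3 of 7 were higher in CHQ than in AZA, where 5.08% of all probes were. The median there was 0.32 (-0.02 over all probes), but it ran from -0.20 without the offset, over 5 callable probes, to 1.80 with the deposited table, over 3, so no size is read from it. Both of these Cdh4 probes were among them (2.51 and 2.77), as Cdh2 was in its own comparison, and Cdh9 was too (1.42). Cdh4 is the closest relative of Cdh2 among classical cadherins, and both were lowest in AZA.

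**Figure D4:**
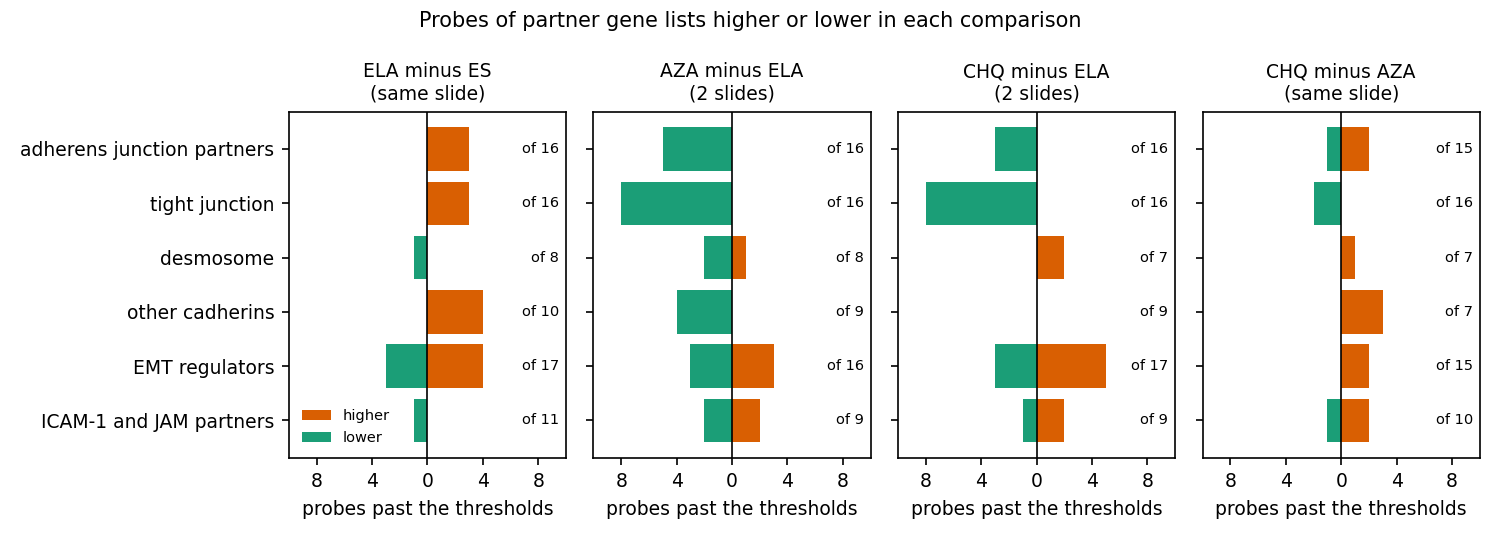
Number of probes of 6 partner lists called higher (right) or lower (left) in each comparison, with the number callable at the right of each row. Tight junction probes are on the lower side against ELA in AZA (8 of 16) and CHQ (8 of 16), and other cadherins are on the higher side in ELA (4 of 10) and in CHQ against AZA (3 of 7).

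Regulators of the epithelial to mesenchymal change were called in both directions. From ES to ELA, 4 of 17 callable probes were higher and 3 lower (4.11% and 5.52% over all probes), but 2 and 7 with spike-in scaling. Zeb2 (2.28), Snai1 (1.65), Snai2 (1.04) and Twist1 (1.02), which encode regulators that repress Cdh1 in other settings, were higher in ELA, the array where Cdh1 itself was highest. Snai3 (-1.60) and Fn1 (fibronectin, -1.09) were lower there. Grhl3, an epithelial transcription factor, was lower in ELA than in ES (-2.48) and higher in AZA (3.92) and CHQ (3.96) than in ELA. Zeb2 was lower in CHQ than in ELA (-1.95) and was called lower in AZA too, where it was not well above background and has no size. Also in CHQ, Snai1 was lower (-1.05), while Vim (vimentin, 2.03), Snai2 (1.55) and Snai3 (1.16) were higher. Fn1 was higher than ELA in AZA (2.08) and CHQ (1.23). Esrp1, a splicing factor of epithelial cells, was lower in both by 1 of 2 probes (-1.52 and -1.40), and its other probe was under the threshold (-0.78 and -0.91). Twist1 was lower in AZA (-1.10). Zeb1, another regulator that represses Cdh1 in other settings, changed little from ES to ELA (0.15). It was higher than ELA in AZA (1.07), where Cdh1 differed from ELA by -0.77, and under the threshold in CHQ (0.91). Against ELA, 3 were higher and 3 lower of 16 in AZA (14% and 12.3% over all probes), and 5 higher and 3 lower of 17 in CHQ (14.2% and 12.8%), but 3 higher and 5 lower of 16 in CHQ with spike-in scaling. CHQ against AZA gave 2 higher of 15 (5.08%), Snai2 (1.63) and Vim (1.16). The list medians were 0.01 from ES to ELA, -0.27 in AZA and 0.38 in CHQ against ELA, and 0.07 between CHQ and AZA, beside -0.01, -0.10, -0.11 and -0.02 over all probes. The median in AZA was above 0 in 5 of the 6 other processings (up to 0.27), that from ES to ELA was below 0 in 5 (down to -0.58), and that between CHQ and AZA was -0.01 with spike-in scaling, so no direction is given for the list in these 3 comparisons.

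Of 11 integrin partners and relatives of ICAM-1 and the JAM proteins, Itgb2, the beta chain of the ICAM-1 receptor, was higher than ELA in AZA (1.09) and CHQ (2.87), and higher in CHQ than in AZA (1.77). Itgb2 is also a gene of leukocytes, it read 7.77 in ES, 7.63 in ELA, 8.72 in AZA and 10.50 in CHQ, and its part in the Icam1 values was not tested. Itgal, the alpha chain of the same receptor, went the other way on slide 2 by 1 probe, which was lower in CHQ than in AZA (-1.06). Its other probes had no call there and gave -0.03 and -1.35, the latter under the minimum mean level. Itgb1 was lower than ELA in AZA by both probes (-1.53 for the first, the second just past the threshold) and in CHQ by the first alone (-1.32, against -0.80). Itga4, which pairs with it in a receptor for JAM-B, was higher in CHQ than in AZA (2.11). Esam, a relative of the JAM proteins, was lower in ELA than in ES (-1.64). In all, 1 of 11 callable probes was lower in ELA than in ES (5.52% over all probes). Against ELA, 2 were higher and 2 lower of 9 in AZA (14% and 12.3%), and 2 higher and 1 lower of 9 in CHQ (14.2% and 12.8%). CHQ against AZA gave 2 higher and 1 lower of 10 (5.08% and 4.65%), but 1 higher and 2 lower with the 75th percentile. The list medians were -0.14, 0.49, -0.06 and -0.07 in the same order of comparisons, beside -0.01, -0.10, -0.11 and -0.02 over all probes, and the third was 0.02 with cyclic loess and 0.01 with the deposited table.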

How the data were processed

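The deposited scanner files, 1 per array, hold for each spot the mean intensity, the local background and flags, which the authors obtained with Agilent Feature Extraction (10.7.3.1 in the file headers, 9.1 in the submitters' processing notes). The log2 values of the deposited table were made by the authors with limma, by background correction and quantile normalisation. It was used as an alternative, and correlated at 0.999 or more per array with normexp without an offset.

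Here intensities were corrected with limma 3.58.1 in R 4.3.3 (normexp, offset 50, fitted on all spots) and gene spots were quantile-normalised over the 4 arrays. Flagged outlier spots were dropped and spots of a probe averaged, which left out 559 probes. No spot was saturated. Calls followed the size and level thresholds above. Alternatives were normexp without offset, no background correction, the 75th percentile of the processed signal, cyclic loess, scaling to 7 spike-in probes, the deposited table, other filters, 2 log2 units and 1 probe a gene. The normalisation and call rule were tested on simulated data. Partner genes named are, per list and comparison, up to 4 called genes with the greatest difference among those well above background on both arrays. Calls of such a gene in its other comparisons are given beside them. Zeb1 is named as well, as a further regulator of Cdh1. Members and lists were chosen with earlier results of these data known. Whether probes lie in exons or untranslated regions was not annotated here. A leukocyte marker list is not reported here as a whole.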

Additional observations from a re-analysis of the deposited data

How the results depend on the processing

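With 1 probe a gene, the count of called members was 3 for ELA minus ES (5 in the main processing) and 2 for CHQ minus AZA (5), since several probes of Jam2 and Cdh2 were then counted once. With a size of 2 log2 units it was 3 for CHQ minus ELA (6). The other counts stayed within 1.5 times the main ones. The 25 called member differences kept their sign in all 150 values from other processings. Of the 31 others, 26 kept it throughout, and 8 of 186 values changed sign. Spike-in scaling ended the calls of Pecam1 and Icam1 in AZA and of Cdh3 in CHQ, and the 75th percentile also ended the last. For Jam2 in CHQ against ELA the 75th percentile moved probe 2 from 2.48 to 3.83 and probe 3 from 1.58 to 2.51. Probe 2 was not well above background in ELA, so both of its values rest on a level not told apart from background. No paired analysis was possible because each group has 1 array. The number of arrays limits the precision, and dim probes such as those of Cdh11 were limited by background, which was higher on slide 1.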
